A study of Mus musculus with 6 samples.

Results

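Transcripts of glycolysis, lactate handling and the pentose phosphate pathway were followed in a mouse cell line of fibroblastic reticular cells (FRCs), which form the stromal scaffold of lymph nodes. The set holds 37 genes, chosen by name to cover glucose entry, the glycolytic steps, lactate production and transport, the gate into mitochondria, the pentose phosphate branch and glycogen, out of 55367 gene symbols counted. All 37 were in the count table, and 34 of them were among the 15055 genes with enough counts to be tested. The FRCs had been kept for 96 h, with a medium change every 48 h, in medium conditioned over 24 h by another culture and then given 2% serum. Control medium came from the FRC line itself. The 67NR and 4T1 media came from sister lines of a mouse mammary carcinoma: 4T1 is known to spread to distant organs, and 67NR to form primary tumours without spreading. Each medium had 2 libraries, 6 in all, made from poly(A) RNA. No library came from FRCs in unconditioned medium, and all groups are 1 cell line.

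Glycolysis splits glucose into pyruvate in the cytosol. Glucose carriers and hexokinases control entry, phosphofructokinase sets the committed step, and the enzymes from aldolase to pyruvate kinase carry the flow down to pyruvate. Lactate dehydrogenase turns pyruvate into lactate, which monocarboxylate carriers move across the cell membrane, while pyruvate dehydrogenase commits pyruvate to the mitochondrion unless its kinases switch it off. The pentose phosphate pathway branches off at glucose-6-phosphate and yields NADPH and ribose. Many of these genes are known targets of HIF-1 and MYC, and stroma near tumours is often described by how it makes or takes up lactate.

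Total counts ranged from 13.6 M to 21.8 M per library (M, 1e6 counts), so that 1 count stood for 0.0463 to 0.0743 counts per 1e6 (CPM, scaled as in the processing notes). Pearson correlations of log CPM across genes were at least 0.992 between libraries sharing a medium and at most 0.979 between media. The labels do not say that the 2 libraries of a medium are separate cultures, so the spread behind each p-value may be technical. Of 14 FRC and fibroblast markers, Thy1, Ccl19, Ccl21a and Cxcl13 had no counts in any library, Icam1 was under 0.4 CPM in each, and Pdpn lay between 97.1 and 130 CPM. Of the 9 tested, 4 were higher and 4 lower in 4T1 than in control medium (44.4% each, beside 19.9 and 19.2% of all genes). Among them were Pdgfra (log2 1.92), Vcam1 (1.61) and Pdgfrb (-0.77). In 67NR medium 4 were higher and 2 lower (44.4 and 22.2%, beside 13 and 14.6% of all genes). Summed epithelial markers (12 genes), which would mark tumour cells, came to 8.32 to 9.55 CPM in control, 6.57 to 6.76 CPM in 67NR and 2.07 to 3.24 CPM in 4T1 medium, with Epcam, Cldn4 and Esrp1 at 0. Summed leukocyte markers (10 genes, with Adgre1, Cd3e and Laptm5 at 0) ranged from 7.01 to 8.47 CPM in control, 11.6 to 12.5 CPM in 67NR and 5.01 to 5.07 CPM in 4T1 medium. Summed endothelial markers (8 genes, with Prox1 at 0) moved with the media, from 14.6 to 16.6 CPM in control to 24.2 to 27.2 CPM in 67NR and 34.8 to 36.2 CPM in 4T1 medium. Most of that sum was Emcn, at 11.7 and 12.6 CPM in control, 22.9 and 20.3 CPM in 67NR and 34.7 and 33.4 CPM in 4T1 medium. The list did not rise together. Of its 5 tested genes, 1 was higher and 2 were lower in 4T1 than in control medium (20.0 and 40.0%, beside 19.9 and 19.2% of all genes). The lower ones were Kdr (log2 -5.00, SE 0.85) and Tek (-2.39, SE 0.52). Both had wide errors and belong to the smaller part of the sum that was not Emcn. The part of these markers in the results was not tested. The mitochondrially encoded share of counts was lowest in the control libraries (1.32 and 1.87%), followed by 67NR (1.96 and 2.28%) and 4T1 (2.11 and 2.37%), and its part in the results was not tested. In whole-culture RNA, a lower level in every cell and fewer cells that express a gene cannot be told apart.

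The media moved the set in different ways. In 4T1 medium the lactate carrier Slc16a1 (2.72-fold), hexokinase 2 (Hk2, 2.53-fold) and the glucose carrier Slc2a1 (1.64-fold) were higher than in control medium, while the lactate carrier Slc16a3 did not pass the test. In 67NR medium the abundant enzymes of lower glycolysis were lower than in control medium, led by lactate dehydrogenase A (Ldha, 1.78-fold lower), and Hk2 and Slc16a1 were lower too. In the edgeR quasi-likelihood test (Benjamini-Hochberg adjusted p under 0.05), 13 of the 34 tested members were higher in 4T1 than in control medium, a share of 38.2%, where 19.9% of all genes tested were higher. Another 5 members, 14.7%, were lower, beside 19.2% of all genes. In 67NR medium 4 members, 11.8%, were higher than in control medium and 12, 35.3%, were lower, beside 13 and 14.6% of all genes. Between the tumour media 20 members, 58.8%, were higher in 4T1 than in 67NR medium and 6, 17.6%, were lower, beside 23.5 and 19.9% of all genes. In either direction, 18 members (52.9%) were called for 4T1 against control, 16 (47.1%) for 67NR against control and 26 (76.5%) between the tumour media, beside 39.1, 27.6 and 43.4% of all genes tested.

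The median log2 fold change of the tested members was 0.12 for 4T1 against control, -0.09 for 67NR against control and 0.30 for 4T1 against 67NR, where the medians of all genes tested were 0.01, 0.00321 and 0.03. Both tumour media were set against the same control libraries. In the single fit, the change between the tumour media is the difference of their changes against control. Calls between the tumour media therefore follow in part from the calls against control. Of the 34 tested members, 28 passed the test in at least 1 comparison. The like share over all genes tested was not taken, nor were shares for the patterns below. These counts therefore only describe the members. Hk2, Pfkl and Slc16a1 were higher in 4T1 and lower in 67NR medium. Another 7 genes were lower in 67NR medium and did not pass the test in 4T1 medium, namely Aldoa, Pgk1, Pgam1, Eno1, Pkm, Ldha and Taldo1, and all of them were higher in 4T1 than in 67NR medium. A further 8 were higher in 4T1 medium and did not pass the test in 67NR medium, namely Slc2a1, Pfkfb3, Pdk1, Pdk4, Pdha1, G6pdx, Pgd and Gys1, and these too were all higher in 4T1 than in 67NR medium. In both tumour media Eno2 and Ldhb were higher, and Pfkp and Tpi1 lower, than in control medium. Gpi1, Pfkfb1, Pfkfb2, Gapdh, Slc16a3 and Pdk3 passed the test in no comparison.

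**Figure D1:**
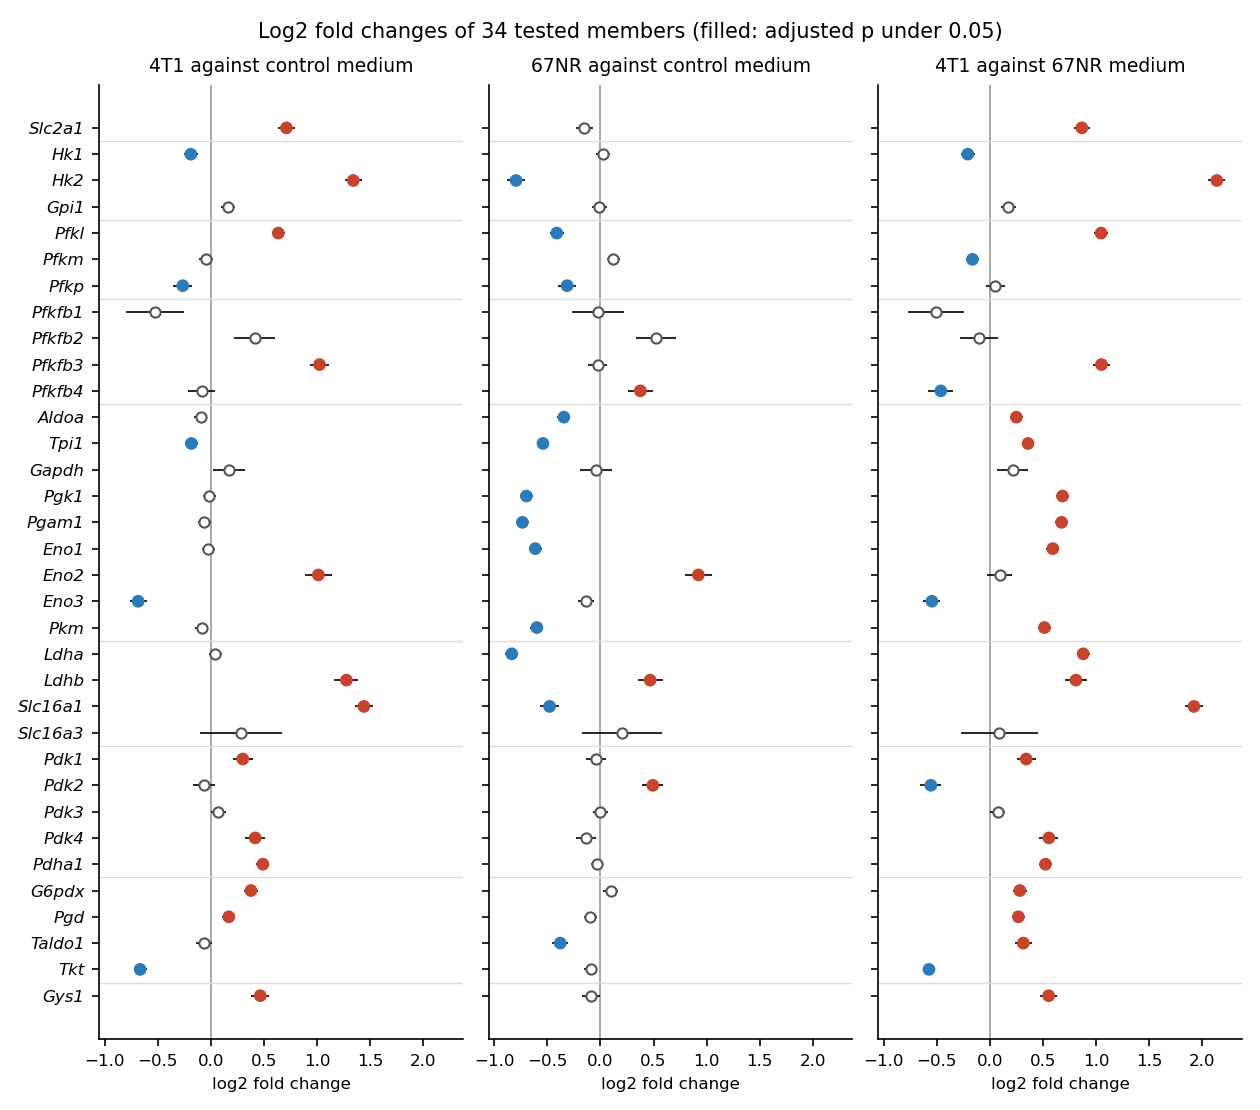
Log2 fold change (horizontal axis) of each of the 34 tested members (vertical axis, grouped by role from glucose entry at the top to glycogen at the bottom) in the 3 comparisons, with bars of 1 standard error. Filled points passed the edgeR test (red higher, blue lower), and the middle panel shows the run of filled blue points from Aldoa to Ldha in 67NR medium, with Gapdh, Eno2 and Eno3 apart from it.

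The promoter sequences of the members that moved most are shown because HIF-1 binds the letters ACGTG or GCGTG and MYC binds CACGTG, and both factors are known to act on these genes. They are the genes with the largest rises in 4T1 medium (Slc16a1 and Hk2) and, apart from Hk2, the largest falls in 67NR medium (Ldha and Pgam1). Each line gives the 250 bases before the RefSeq start (build GRCm38.p6), 5′ to 3′ on the gene's own strand, with every match to ACGTG or GCGTG, on either strand, in capitals. The windows are chr3:104638414-104638663 (plus strand) for Slc16a1, chr6:82774455-82774704 (minus) for Hk2, chr7:46845554-46845803 (plus) for Ldha and chr19:41911621-41911870 (plus) for Pgam1.
Slc16a1: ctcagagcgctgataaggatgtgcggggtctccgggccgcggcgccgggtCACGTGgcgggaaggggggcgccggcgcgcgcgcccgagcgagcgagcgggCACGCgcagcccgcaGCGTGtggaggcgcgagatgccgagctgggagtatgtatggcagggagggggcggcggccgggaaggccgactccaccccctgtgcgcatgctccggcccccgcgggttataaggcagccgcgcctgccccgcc
Hk2: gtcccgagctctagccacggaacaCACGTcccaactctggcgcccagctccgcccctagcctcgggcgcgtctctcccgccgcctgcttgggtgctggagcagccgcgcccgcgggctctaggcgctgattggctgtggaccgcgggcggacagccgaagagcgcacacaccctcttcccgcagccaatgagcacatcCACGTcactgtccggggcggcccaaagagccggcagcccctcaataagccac
Ldha: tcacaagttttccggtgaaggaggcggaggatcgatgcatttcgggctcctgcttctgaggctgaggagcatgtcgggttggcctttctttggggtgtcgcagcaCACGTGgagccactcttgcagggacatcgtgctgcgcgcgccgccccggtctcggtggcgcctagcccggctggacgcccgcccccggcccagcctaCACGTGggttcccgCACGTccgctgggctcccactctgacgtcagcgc
Pgam1: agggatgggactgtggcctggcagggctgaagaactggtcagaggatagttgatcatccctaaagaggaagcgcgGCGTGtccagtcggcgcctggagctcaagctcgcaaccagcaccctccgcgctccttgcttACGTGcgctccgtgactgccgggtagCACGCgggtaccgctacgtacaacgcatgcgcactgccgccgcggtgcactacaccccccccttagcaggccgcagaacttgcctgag
The letters CACGTG hold ACGTG on both strands and count as 2 matches, so Slc16a1 had 4 matches, Hk2 2, Ldha 5 and Pgam1 3 within these lines. CACGTG stood once in the Slc16a1 line and in 2 places in the Ldha line. Ldha has 2 RefSeq windows, of which the one with more matches is shown.

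Over the full RefSeq windows, which run on for 50 bases past the start, 36 of the 37 members had an entry. A match to ACGTG or GCGTG on either strand stood in at least 1 window of 32 of the 36 members (88.9%), as in 67.6% of the 9983 tested genes with an entry and 43.8% of all 32851 single windows. The stricter ACGTG stood in 19 members (52.8%), in 29.2% of those tested genes and in 19.6% of single windows. Eno2, Gpi1, Gys1 and Tpi1 had no match in their windows. These shares describe letters only, and genes with several windows have more chances of a match.

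Glucose enters fibroblasts mainly through GLUT1, the product of Slc2a1 (chromosome 4, 119108711 to 119137983). Slc2a1 stood at 38.5 and 43.6 CPM in control, 36.6 and 36.9 CPM in 67NR and 67.0 and 66.9 CPM in 4T1 medium. Both 4T1 libraries lay above the other 4, and the 67NR libraries lay just below control. The rise in 4T1 medium was 1.64-fold (log2 fold change 0.71, SE 0.08, edgeR quasi-likelihood adjusted p = 1.26e-05), and 67NR did not pass the test against control (log2 -0.15, adjusted p = 0.187 by edgeR). Slc2a3, the gene of the high-affinity carrier GLUT3, was too low to test, with 3 to 16 counts per library.

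Hexokinases trap glucose in the cell as glucose-6-phosphate. Hk2 (chromosome 6, 82725025 to 82774454), the inducible isoenzyme, stood at 31.3 and 34.6 CPM in control, 19.4 and 18.4 CPM in 67NR and 83.4 and 82.8 CPM in 4T1 medium. The media fell into 3 separate levels, with control in the middle. Hk2 was 2.53-fold higher in 4T1 (log2 1.34, SE 0.08, adjusted p = 2.71e-08) and 1.73-fold lower in 67NR medium than in control (log2 -0.79, SE 0.09, adjusted p = 1.91e-05, both edgeR). At 4.39-fold, its difference between 4T1 and 67NR medium had the greatest log2 value (2.14, SE 0.08) of any tested member in any of the 3 comparisons. Hk1, the constitutive isoenzyme, ranged only from 165 to 196 CPM over the 6 libraries. It was 1.14-fold lower in 4T1 than in control medium (edgeR adjusted p = 0.0371), a call that 7 of 15 alternative analyses ended (adjusted p up to 0.255). The count ratio of Hk2 to Hk1 was 0.159 and 0.190 in control, 0.0990 and 0.0980 in 67NR and 0.498 and 0.503 in 4T1 medium. Gpi1, which converts glucose-6-phosphate to fructose-6-phosphate, lay between 204 and 246 CPM and passed the test in no comparison. Under 3 of 15 alternatives Gpi1 passed it for 4T1 against 67NR medium, and under 2 for 4T1 against control.

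Phosphofructokinase is a tetramer built from liver (Pfkl), muscle (Pfkm) and platelet (Pfkp) subunits. Pfkl (chromosome 10, 77986947 to 78010083) stood at 103 and 105 CPM in control, 78.7 and 77.9 CPM in 67NR and 158 and 165 CPM in 4T1 medium. As for Hk2, control lay between the tumour media without overlap. Pfkl was 1.55-fold higher in 4T1 (log2 0.64, SE 0.06, adjusted p = 4.66e-06) and 1.33-fold lower in 67NR medium (log2 -0.41, SE 0.06, adjusted p = 0.000418) by edgeR. Pfkm ranged from 118 to 133 CPM. It was lower in 4T1 than in 67NR medium (log2 -0.17, edgeR adjusted p = 0.0484), a call that 9 of 15 alternatives ended (adjusted p up to 0.221). Pfkp fell in both tumour media, from 43.7 and 41.2 CPM in control to 34.6 and 33.8 CPM in 67NR and 32.8 and 37.9 CPM in 4T1 medium. The alternatives that ended those Pfkp calls were 5 for 67NR and 7 for 4T1 medium, with adjusted p up to 0.139 and 0.173.

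The PFKFB enzymes make and break fructose-2,6-bisphosphate, the strongest activator of phosphofructokinase. Pfkfb3, the isoenzyme with the most kinase activity relative to phosphatase activity, stood at 23.5 and 23.2 CPM in control, 23.9 and 22.0 CPM in 67NR and 45.8 and 49.2 CPM in 4T1 medium. Control and 67NR libraries overlapped and both 4T1 libraries lay above them. The rise in 4T1 medium was 2.03-fold (log2 1.02, SE 0.09, edgeR adjusted p = 8.56e-07). Pfkfb4 moved otherwise: it was higher in 67NR than in control medium (log2 0.38, edgeR adjusted p = 0.0284, up to 0.257 over the alternatives, 4 of which ended the call). It was also lower in 4T1 than in 67NR medium (log2 -0.46, edgeR adjusted p = 0.00578), a call that leaving out 67NR replicate 1 ended (adjusted p = 0.0816). Pfkfb1 and Pfkfb2 lay below 10 CPM in every library and passed no test, although Pfkfb2 passed it for 67NR against control under 5 of 15 alternatives.

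The steps from aldolase to pyruvate kinase, with lactate dehydrogenase A, gave the most uniform pattern. Aldolase A (Aldoa) splits the sugar, triose phosphate isomerase (Tpi1) interconverts the products, phosphoglycerate kinase (Pgk1) and pyruvate kinase (Pkm) make ATP, and phosphoglycerate mutase (Pgam1) and enolase (Eno1) act between them. All 7 genes, Ldha included, fell in 67NR medium (edgeR), with log2 fold changes from -0.83 to -0.34 and a median of -0.61. All 7 were higher in 4T1 than in 67NR medium, with log2 fold changes from 0.25 to 0.88. Against control, 4T1 medium gave log2 values from -0.18 to 0.04, and only Tpi1 passed the test. Their summed level was 3899 and 3930 CPM in control, 2589 and 2548 CPM in 67NR and 3746 and 3740 CPM in 4T1 medium. These 7 genes were grouped after their values had been seen, so the group's uniformity is a description.

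Pgk1 (chromosome X, 106187100 to 106203699) stood at 344 and 352 CPM in control, 212 and 217 CPM in 67NR and 339.6 and 349 CPM in 4T1 medium. The 4T1 libraries overlapped control, and the 67NR libraries lay far below both. In 67NR medium Pgk1 was 1.62-fold lower than in control (log2 -0.70, SE 0.06, edgeR adjusted p = 2.81e-06). Pgam1 (chromosome 19, 41911923 to 41918660) stood at 434 and 448 CPM in control, 265 and 265 CPM in 67NR and 416 and 429 CPM in 4T1 medium. Here the 4T1 libraries lay just below control, and its fall in 67NR medium was 1.66-fold (log2 -0.73, SE 0.06, edgeR adjusted p = 1.82e-06).

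Pkm (chromosome 9, 59656368 to 59679375) stood at 1311 and 1282 CPM in control, 860.4 and 853 CPM in 67NR and 1242 and 1202 CPM in 4T1 medium. Eno1 (chromosome 4, 150236721 to 150248879) stood at 329 and 334 CPM in control, 224 and 209 CPM in 67NR and 325 and 327 CPM in 4T1 medium. For both genes the 67NR libraries lay below the other 4 without overlap. Pkm was 1.51-fold lower (log2 -0.60, SE 0.06, adjusted p = 1.19e-05) and Eno1 1.53-fold lower (log2 -0.61, SE 0.06, adjusted p = 1.12e-05) in 67NR than in control medium by edgeR. Counts are per gene, so the Pkm splice forms M1 and M2 are not separated, and Gm49759 overlaps 15.3% of the merged exons of Pkm on the same strand.

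Tpi1 stood at 421 and 429.6 CPM in control, 294 and 290.1 CPM in 67NR and 370.1 and 379 CPM in 4T1 medium, so here the 4T1 libraries lay between the other media. Its fall was 1.45-fold in 67NR medium (log2 -0.54, SE 0.06, adjusted p = 2.4e-05) and 1.13-fold in 4T1 medium (log2 -0.18, SE 0.06, adjusted p = 0.0283) by edgeR. The 4T1 call ended under 6 of 15 alternatives (adjusted p up to 0.148). Aldoa showed the smallest fall of the 7 in 67NR medium, from 533 and 542 CPM to 429 and 419 CPM (log2 -0.34, edgeR adjusted p = 0.00096). The second aldolase in the set, Aldoc, was too low to test, at 3 to 6 counts per library.

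The other enolases moved apart from Eno1. Eno2, the neuronal gamma form, rose in both tumour media, from 6.44 and 6.61 CPM in control to 13.1 and 11.6 CPM in 67NR and 13.2 and 13.1 CPM in 4T1 medium. The control libraries lay below all 4 tumour medium libraries, which lay close together. The log2 fold changes were 1.01 (SE 0.13, adjusted p = 4.57e-05) in 4T1 and 0.92 (SE 0.13, adjusted p = 0.000151) in 67NR medium by edgeR. Eno3, the muscle beta form, fell in 4T1 medium, from 56.8 and 61.2 CPM in control to 36.1 and 37.2 CPM, with 51.1 and 56.1 CPM in 67NR medium. Eno3 was 1.61-fold lower in 4T1 than in control medium (log2 -0.68, SE 0.08, edgeR adjusted p = 2.24e-05).

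**Figure D2:**
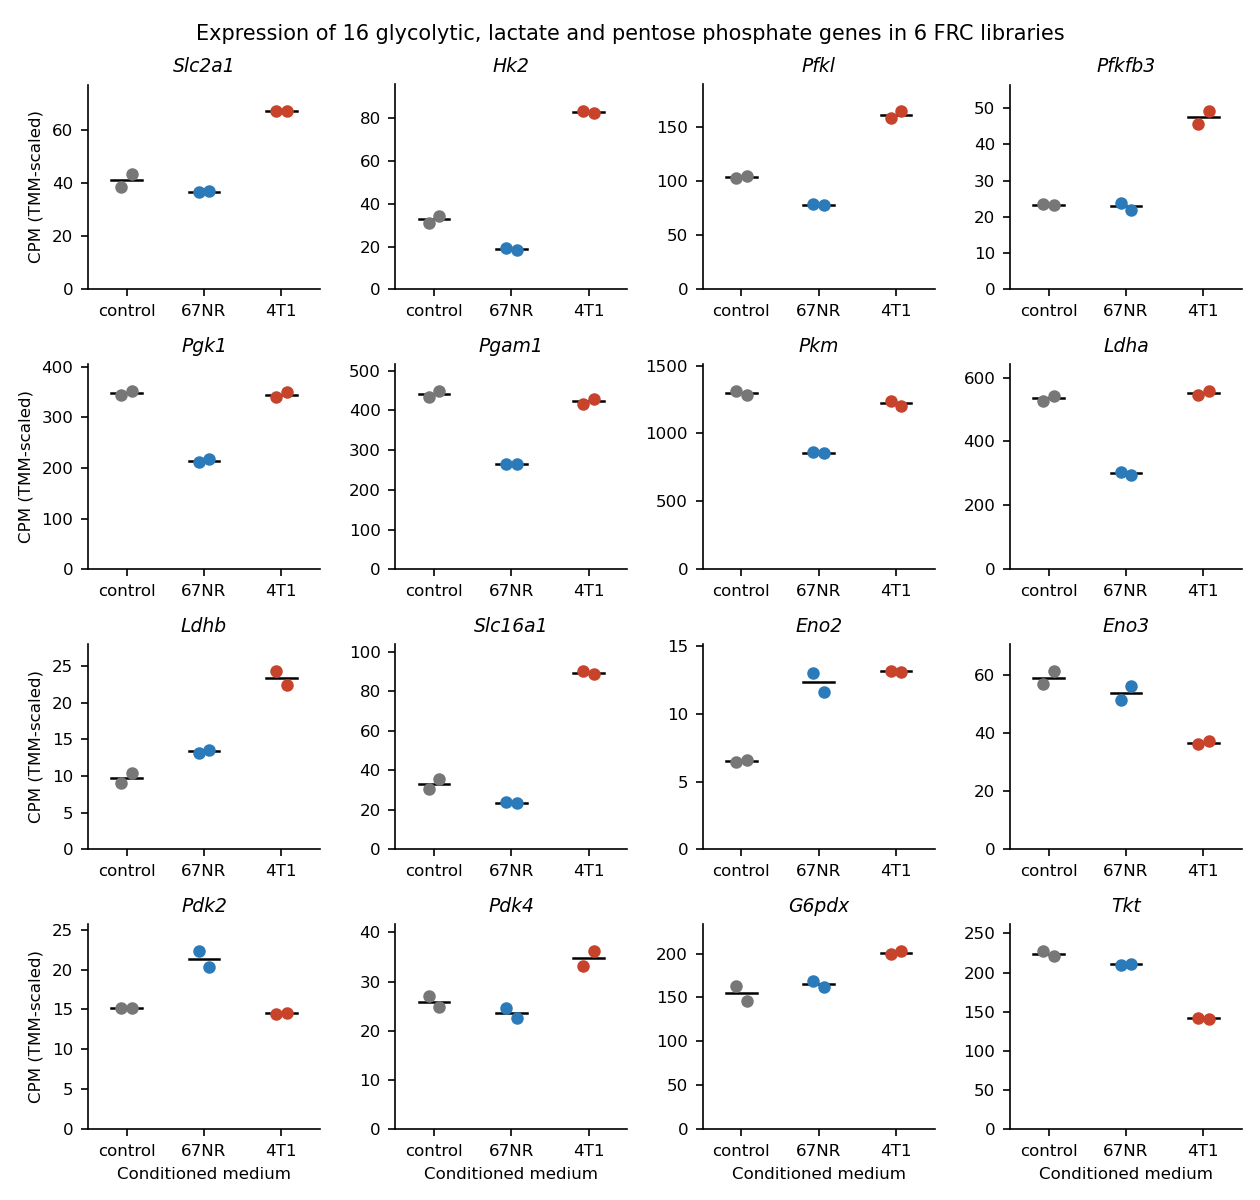
CPM (vertical axes, from 0) of 16 members in the 6 libraries by medium; points are libraries and lines are the means of 2. Slc2a1, Hk2, Pfkl, Pfkfb3 and Slc16a1 stand highest in 4T1 medium, while Pgk1, Pgam1, Pkm and Ldha stand lowest in 67NR medium and close together in control and 4T1 medium.

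Gapdh (chromosome 6, 125161715 to 125166467), which encodes the dehydrogenase between triose phosphate isomerase and phosphoglycerate kinase, was the exception in this stretch. Its row held 131 and 96 counts in control, 149 and 135 in 67NR and 104 and 156 in 4T1 medium. Per kilobase of merged exons, and on own rows alone, Gapdh had a mean level of 1.73 CPM, which is 31.3 times below Eno1 and 130 times below Pkm, the lowest and highest of the 7 enzymes above. With the longest transcript in place of merged exons its mean was 2.18 CPM, 66.1 times below Eno1 and 213 times below Pkm. The size of the gap thus depends on the length used. On these counts Gapdh passed the test in no comparison, with log2 fold changes of 0.17, -0.04 and 0.21 and SEs of 0.15.

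Gapdh is known for its many processed pseudogenes, which are copies of its messenger RNA placed elsewhere in the genome. In the GENCODE M21 transcripts, 1131 of the 1371 windows of 50 bases in the principal Gapdh transcript (82.5%) also occurred in transcripts of other genes, on either strand, and so did all 950 windows of its coding sequence. With windows of 75 bases the share was 80.3%. The coding window found in the largest number of other genes, 84 of which 80 are pseudogenes, is printed here to show how far the repetition goes. It lies at bases 655 to 704 of the messenger RNA, within 1 exon, at chr6:125162898-125162947 on the minus strand of GRCm38.
Gapdh: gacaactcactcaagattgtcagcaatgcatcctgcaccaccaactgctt
The share of repeated windows was 68.0% for Pgk1, 72.2% for Eno1, 41.5% for Pgam1, 34.4% for Pkm, 17.1% for Ldha, 13.9% for Aldoa and 7.51% for Tpi1. It was 0% for Hk1, Hk2, Slc16a1, Pfkm, Eno3, Pgd and Tkt, among others.

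Counts were found on the copies. Of 115 genes that share at least 50 such windows with Gapdh, 113 were in the count table and 105 had a count. Together they held 45005 and 30007 counts in control, 40882 and 38100 in 67NR and 30643 and 38341 in 4T1 medium, so that Gapdh's own row held only 0.290 to 0.405% of the sum. The pseudogene Gm7336, named after its values were seen, alone held 8450 counts in the first control library. With the copies added, Gapdh came to 2345 and 2238 CPM in control, 1900.1 and 1860 CPM in 67NR and 2078 and 2096 CPM in 4T1 medium. On that sum 67NR medium lay below control (log2 -0.29, SE 0.06, edgeR adjusted p = 0.00411), where the row alone had given -0.04. The sum for 4T1 against control was -0.14 (SE 0.06, edgeR adjusted p = 0.103), where the row alone had given 0.17. The sum may include transcripts of other origin, and the rule for reads that match several places is not given in the sources used here.

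For 2 of the other enzymes the copies held more counts than the gene. Pgk1's own row held 42.2 to 43.3% of the sum over the gene and its copies, and Eno1's row 28.4 to 30.5%. Adding the copies left their falls in 67NR medium in place, at log2 -0.68 (SE 0.06, adjusted p = 3.8e-06) for Pgk1 and -0.62 (SE 0.06, adjusted p = 8.33e-06) for Eno1 by edgeR. Aldoa, Tpi1, Pgam1, Pkm and Ldha held 85.6% or more of the sum on their own rows.

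**Figure D3:**
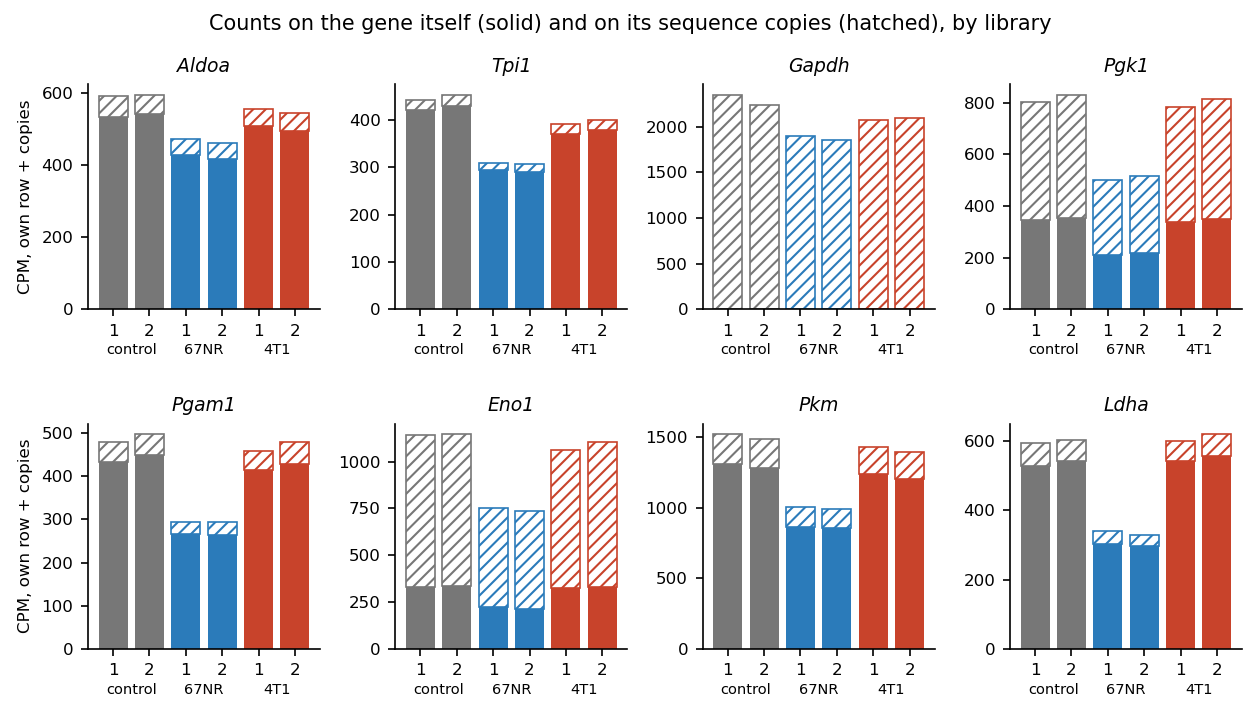
CPM (vertical axes, from 0) on the gene itself (solid) and on its sequence copies (hatched) in each library, for 8 enzymes of lower glycolysis and lactate production. The Gapdh bars are hatched almost throughout, Pgk1 and Eno1 are split, and the sums are lowest in 67NR medium for all 8 genes.

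Lactate dehydrogenase is a tetramer of A chains, which favour lactate production, and B chains, which favour its use. Ldha (chromosome 7, 46841475 to 46855627) stood at 528 and 542 CPM in control, 304 and 296 CPM in 67NR and 544 and 557 CPM in 4T1 medium. The 67NR libraries lay below the other 4, and the 4T1 libraries lay just above control. Ldha was 1.78-fold lower in 67NR than in control medium (log2 -0.83, SE 0.06, edgeR adjusted p = 6.16e-07), and did not pass the test in 4T1 medium (log2 0.04, SE 0.06, adjusted p = 0.618). Ldhb rose in both tumour media, from 9.03 and 10.4 CPM in control to 13.1 and 13.6 CPM in 67NR and 24.3 and 22.5 CPM in 4T1 medium. The rise was 2.42-fold in 4T1 (log2 1.28, SE 0.11, adjusted p = 1.43e-06) and 1.38-fold in 67NR medium (log2 0.47, SE 0.12, adjusted p = 0.00956) by edgeR. The 67NR call ended without control replicate 1 or without 67NR replicate 2 (adjusted p up to 0.133). The count ratio of Ldhb to Ldha was 0.0171 and 0.0192 in control, 0.0431 and 0.0459 in 67NR and 0.0447 and 0.0404 in 4T1 medium. The ratio was thus at a like level in both tumour media, where Ldha and Ldhb themselves stood at different levels.

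Monocarboxylate carriers move lactate with a proton in either direction. Slc16a1 (chromosome 3, 104638668 to 104658462), the gene of MCT1, stood at 30.5 and 35.8 CPM in control, 24.0 and 23.3 CPM in 67NR and 90.3 and 88.8 CPM in 4T1 medium. Control lay between the tumour media, as for Hk2 and Pfkl. The rise in 4T1 medium was 2.72-fold (log2 1.44, SE 0.08, adjusted p = 2.78e-08) and the fall in 67NR medium 1.39-fold (log2 -0.48, SE 0.09, adjusted p = 0.00171) by edgeR. Slc16a3, the gene of MCT4, the carrier best known for lactate export, stayed between 0.743 and 1.74 CPM and passed the test in no comparison, with SEs of 0.36 to 0.39.

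Pyruvate dehydrogenase opens the way into mitochondria, and the kinases PDK1 to PDK4 switch it off. Pdha1, its catalytic alpha subunit, rose in 4T1 medium, from 256 and 246 CPM in control to 357 and 349 CPM, with 245 and 246 CPM in 67NR medium. The 4T1 libraries lay above the other 4 (log2 0.49, SE 0.06, edgeR adjusted p = 3.26e-05). Pdha1 overlaps Map3k15 on the opposite strand over 16.1% of its merged exons, and the strand setting of the counting is not given in the sources used here. Pdk4, a kinase induced by fasting and fatty acids, stood at 27.0 and 24.8 CPM in control, 24.6 and 22.7 CPM in 67NR and 33.2 and 36.2 CPM in 4T1 medium. Its rise in 4T1 medium was 1.34-fold (log2 0.42, SE 0.09, edgeR adjusted p = 0.00283).

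The widely expressed kinase Pdk2 rose instead in 67NR medium, to 22.3 and 20.3 CPM from 15.2 and 15.2 CPM in control, with 14.5 and 14.5 CPM in 4T1 medium. The 67NR libraries lay above all others (1.41-fold against control, log2 0.49, SE 0.10, edgeR adjusted p = 0.00237). Pdk1, a HIF-1 target, was 1.23-fold higher in 4T1 than in control medium (edgeR adjusted p = 0.0212), and 3 of 15 alternatives ended that call (adjusted p up to 0.213). Pdk3 kept between 43.3 and 46.4 CPM in the 6 libraries and passed no test.

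In the pentose phosphate pathway G6pdx rose and Tkt fell in 4T1 medium. G6pdx, the glucose-6-phosphate dehydrogenase that makes the first NADPH, rose from 163 and 146 CPM in control to 199 and 203 CPM in 4T1 medium, with 169 and 162 CPM in 67NR medium (log2 0.38 for 4T1 against control, SE 0.07, edgeR adjusted p = 0.000805). Tkt, the transketolase that links the pathway back to glycolysis, fell from 228 and 221 CPM in control to 142 and 141 CPM in 4T1 medium, with 210.1 and 211 CPM in 67NR medium. Tkt was 1.59-fold lower in 4T1 than in control medium (log2 -0.67, SE 0.06, edgeR adjusted p = 2.1e-06), with both 4T1 libraries below the other 4. The count ratio of G6pdx to Tkt was 0.716 and 0.661 in control, 0.804 and 0.767 in 67NR and 1.40 and 1.44 in 4T1 medium. G6pdx overlaps Ikbkg on the opposite strand over 13.6% of its merged exons.

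Pgd, the enzyme that makes the second NADPH, was 1.12-fold higher in 4T1 than in control medium (edgeR adjusted p = 0.0432), and 9 of 15 alternatives ended that call (adjusted p up to 0.190). Taldo1, the transaldolase, fell in 67NR medium, from 77.2 and 77.6 CPM to 60.6 and 58.5 CPM (log2 -0.38, SE 0.08, edgeR adjusted p = 0.00289). In 4T1 medium Taldo1 stood at 79.1 and 69.2 CPM, which overlapped control. Gys1, the glycogen synthase, rose in 4T1 medium, from 58.9 and 60.6 CPM in control to 75.4 and 89.3 CPM, with 56.4 and 56.1 CPM in 67NR medium. That rise was 1.38-fold (log2 0.47, SE 0.08, edgeR adjusted p = 0.000724). Pygl, the liver glycogen phosphorylase, had 1 count in all 6 libraries. Pygb, a glycogen phosphorylase outside the set, stood at 128 and 130 CPM in control, 145 and 150 CPM in 67NR and 67.9 and 77.1 CPM in 4T1 medium. Its log2 fold change was -0.83 for 4T1 against control (edgeR adjusted p = 1.61e-06) and -1.02 for 4T1 against 67NR medium.

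Isoenzyme shares within a family, taken from CPM per kilobase of merged exons, shifted with the medium. In 4T1 medium Hk2 made up 41.7 ± 0.159% of the hexokinases (mean ± SD, n = 2 in each medium), against 20.0 ± 1.98% in control and 12.3 ± 0.0763% in 67NR medium. Pfkl made up 38.9 ± 0.626%, 28.2 ± 0.947% and 21.7 ± 0.00485% of phosphofructokinase in the same order. The Pfkfb3 share was 62.0 ± 1.46% in 4T1 medium, against 43.8 ± 0.236% in control and 37.4 ± 0.300% in 67NR medium, and in 67NR medium Pfkfb4 (42.6 ± 2.08%) stood above it. Ldhb made up 3.69 ± 0.287% of lactate dehydrogenase in control medium, against 8.58 ± 0.343% with 67NR and 8.23 ± 0.548% with 4T1 medium. The leading isoenzyme was the same in every medium in 8 of 9 families, with Hk1, Eno1, Ldha and Pdk3 among the leaders. With the longest transcript in place of merged exons this held for 7, since Pfkl then passed Pfkm in 4T1 medium. With those lengths Hk2 made up 28.0% of the hexokinases in 4T1 medium, 11.9% in control and 7.10% in 67NR medium, and Ldhb 5.59, 2.46 and 5.83% of lactate dehydrogenase. The shares thus depend on the length used, while for both genes the media kept their side of control. All shares use own rows alone, without copies. Eno1's own row held 28.4 to 30.5% of its sum with copies, while Eno3 had 0% repeated windows. The enolase shares therefore depend on where reads were counted, and shares with copies added were not taken. Shares are given as values, with no test.

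**Figure D4:**
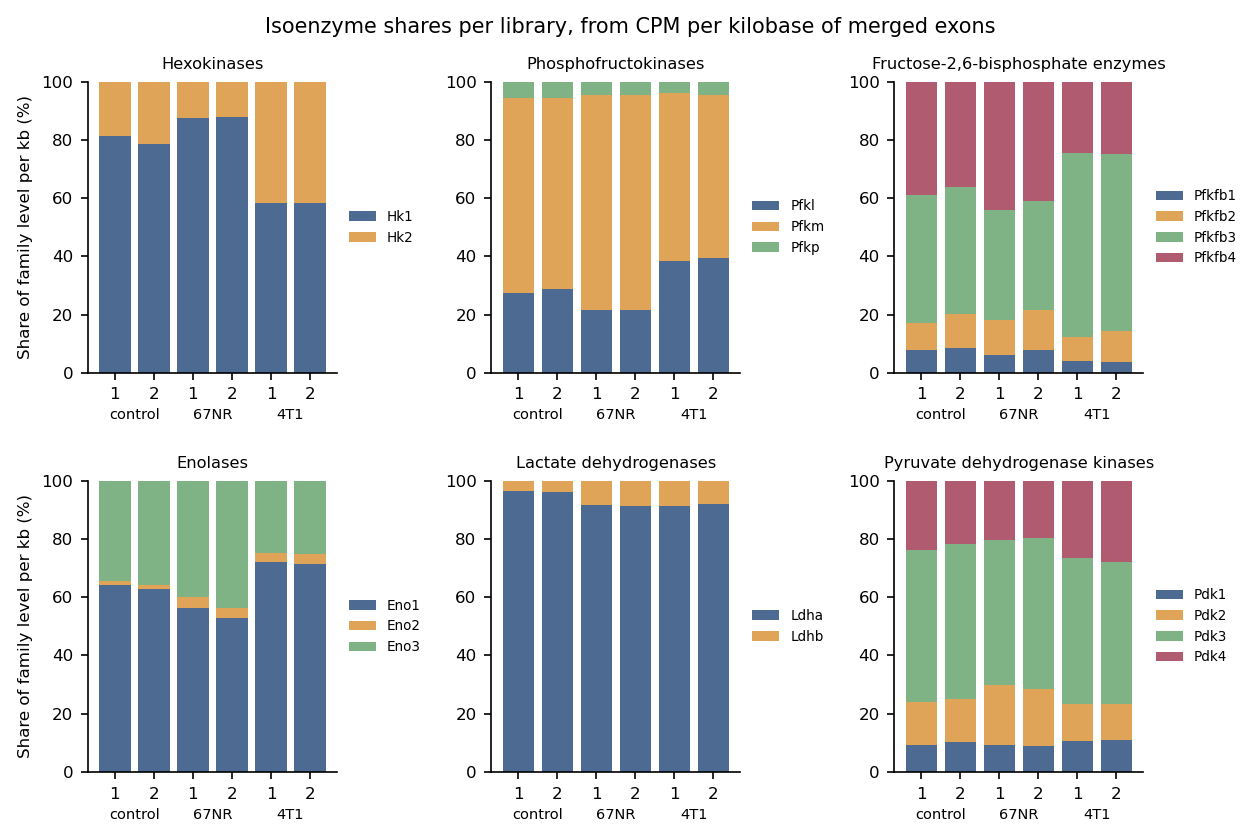
Share of each isoenzyme in its family (vertical axes, percent of the summed CPM per kilobase of merged exons) in each of the 6 libraries, for 6 families. Own rows are used, without copies, which matters most for Eno1 among the enolases. The Hk2, Pfkl and Pfkfb3 segments are widest in 4T1 medium, and the Ldhb segment is wider in both tumour media than in control.

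Genes of the same pathways outside the set gave a mixed picture. Over all genes tested, 19.9% were higher and 19.2% lower in 4T1 than in control medium, and 13 and 14.6% in 67NR medium, and the counts below stand beside those shares. Of 11 other tested glycolytic genes, 4 were higher and 1 lower in 4T1 than in control medium (edgeR; 36.4 and 9.09%), and 1 was higher and 2 were lower in 67NR medium (9.09 and 18.2%). Among them Slc2a6, a glucose carrier of lysosomes, was near the limit of detection and lower in 4T1 medium (log2 -2.30, from 1.61 and 1.71 CPM to 0.270 and 0.381 CPM). Tigar, a phosphatase that lowers fructose-2,6-bisphosphate, was 0.94 higher on the log2 scale in 4T1 than in control medium and 1.34 higher than in 67NR medium. Of 14 other lactate and pyruvate genes, 3 were higher and 3 lower in 4T1 medium (21.4% each), and 1 was higher and 3 lower in 67NR medium (7.14 and 21.4%). The strongest was Pdp1, the phosphatase that switches pyruvate dehydrogenase back on, which fell from 73.3 and 72.8 CPM to 37.2 and 35.2 CPM in 4T1 medium (log2 -1.01).

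Of 8 other pentose phosphate genes, 3 were higher and 1 lower in 4T1 medium (37.5 and 12.5%), and 3 were lower (37.5%) and none higher in 67NR medium. H6pd, the glucose-6-phosphate dehydrogenase of the endoplasmic reticulum, rose from 84.2 and 79.9 CPM to 181 and 213 CPM in 4T1 medium (log2 1.26, edgeR adjusted p = 7.91e-08). Of 19 other glycogen genes, 3 were higher and 8 lower in 4T1 medium (15.8 and 42.1%), and 7 were higher and 1 lower in 67NR medium (36.8 and 5.26%), where over all genes the shares were 19.9 and 19.2%, and 13 and 14.6%. Pgm5, a phosphoglucomutase relative found at cell adhesions, fell by 3.44 on the log2 scale in 4T1 medium and rose by 1.21 in 67NR medium. Its levels were 66.8 and 64.4 CPM in control, 155 and 148 CPM in 67NR and 6.89 and 5.28 CPM in 4T1 medium. Ppp1r3b and Ppp1r3c, which bring protein phosphatase 1 to glycogen, rose in both tumour media, by 2.32 and 1.41 in 4T1 and by 1.53 and 2.01 in 67NR medium on the log2 scale, from levels under 2 CPM. Of 3 tested genes of glucose release and its precursors, G6pc3 was higher in 4T1 than in control medium.

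Regulators of these pathways were listed as well. Of 15 tested, 9 were higher (60.0%, beside 19.9% of all genes) and none lower (beside 19.2%) in 4T1 than in control medium. In 67NR medium 5 were higher (33.3%, beside 13%) and 2 lower (13.3%, beside 14.6%). Hif1a, the oxygen-regulated subunit of HIF-1, stood at 189 and 209 CPM in control, 218 and 207 CPM in 67NR and 576 and 658 CPM in 4T1 medium (log2 1.63 for 4T1 against control, edgeR adjusted p = 4.6e-09). Epas1, the HIF-2 subunit, was low and higher in both tumour media, at 0.779 and 0.818 CPM in control, 1.62 and 2.34 CPM in 67NR and 1.96 and 2.78 CPM in 4T1 medium (log2 1.30 and 1.58). Myc followed the order of Hk2, Pfkl and Slc16a1, at 78.8 and 83.5 CPM in control, 56.9 and 56.9 CPM in 67NR and 156 and 143 CPM in 4T1 medium. The log2 fold changes of Myc were 0.88 in 4T1 and -0.51 in 67NR medium against control. Klf4, of the same list, had the same order, with 0.76 in 4T1 and -0.46 in 67NR medium against control. Txnip, which restrains glucose uptake, was higher in both, by 0.51 in 4T1 and 1.02 in 67NR medium on the log2 scale, and its relative Arrdc4 by 1.24 and 0.69.

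Of 19 HIF target genes outside glycolysis, 6 were higher (31.6%, beside 19.9% of all genes) and 7 lower (36.8%, beside 19.2%) in 4T1 than in control medium. In 67NR medium 2 were higher (10.5%, beside 13%) and 8 lower (42.1%, beside 14.6%). Car12, a carbonic anhydrase of the cell surface, had the list's greatest rise in 4T1 medium (log2 2.62) and rose in 67NR medium (1.39), from 0.467 and 0.446 CPM in control. Vegfa, the endothelial growth factor, rose by 1.35 on the log2 scale in 4T1 medium, Ero1l, an oxidase of the endoplasmic reticulum, by 1.17 and Stc2, a secreted stanniocalcin, by 2.05. Ankrd37 fell by 1.72 and Adm, the gene of adrenomedullin, by 1.48 in the same comparison. In 67NR medium Ero1l (log2 -0.33), Stc2 (-0.59) and Ankrd37 (-0.95) were lower than in control, while Vegfa and Adm did not pass the test. The list as a whole thus moved in both directions in 4T1 medium. Of 9 tested mitochondrial and nuclear RNAs listed as signs of RNA quality, 6 were higher in 4T1 than in control medium (66.7%, beside 19.9% of all genes). In 67NR medium 7 were higher (77.8%, beside 13%). None was lower in either, and their part in the results was not tested.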

How the data were processed

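The authors deposited raw counts of reads, whole numbers per gene symbol; they used Subread on mm10 and DESeq2 1.32.0, per the submitters' processing notes. The counting's settings for strand and for reads with several matches were not stated there. Genes passed filterByExpr (edgeR 4.0.16; at least 10 counts, total at least 15), with TMM scaling, which also scales CPM. A single quasi-likelihood fit over 6 libraries (3 residual and 9.62 prior degrees of freedom, common biological coefficient of variation 5.81%) gave log2 fold changes, adjusted over 15055 genes. An SE is the log2 fold change over the root of its F. Positions, lengths and repeated windows come from GENCODE M21 (GRCm38, as mm10); the planned genome search was run on its transcripts. Copies share at least 50 windows of 50 bases, a limit set after seeing the data. Alternatives were the size factors and Wald test of DESeq2 1.42.0, unscaled library totals, the authors' filtered gene list or no filter, a replicate block, limma-voom (limma 3.58.1), 2-group fits and leaving out each library; copy sums were added after seeing the data, 15 in all. The fit was also run on simulated data in which every gene had the same biological coefficient of variation and few genes changed. That setting differs from these data, so the run cannot vouch for the calls. Members and lists were chosen with earlier results of these data known. Values per library are given for called members with a log2 change of at least 0.5, for Gapdh and, outside that rule, for Aldoa, Pfkp, G6pdx and Taldo1. Other genes are named only if called with a log2 change of at least 1 in some comparison, or where a result turns on them, with Pdpn, Icam1, G6pc3 and markers at 0 as exceptions. Not every gene that meets this is named, and the choice was made after seeing the values.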

Additional observations from a re-analysis of the deposited data

How the results depend on the processing

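Of 60 member calls, 45 held under all 15 alternatives, and the 15 that did not are named below or beside their values. In 4T1 against control, Hk1, Pfkp, Tpi1, Pgd and Pdk1 lost the call under at least 1 alternative, and in 67NR against control Pfkp, Pfkfb4 and Ldhb did. In 4T1 against 67NR, Pfkm, Hk1, Pdk1 and Pfkfb4 did, as did Aldoa, G6pdx and Taldo1 without 67NR replicate 2 (adjusted p = 0.0786, 0.0742 and 0.0618 by edgeR). The 5 members lower in 4T1 than in control medium became 3 with library totals alone, 3 with the DESeq2 Wald test and 2 with only the 2 groups compared. Over all genes, the 2893 lower of 15055 tested became 2663, 2318 and 2569 in the same order, the last of 14523 tested. Leaving out 1 library at a time gave 2 to 5 members lower in 4T1 medium, 2 to 5 higher in 67NR medium and 3 to 6 lower in 4T1 than in 67NR medium. The same gave 1891 to 2931 genes higher in 4T1 than in control medium (2995 with all libraries), and for 67NR against control 1043 to 2497 genes higher (1951) and 1184 to 2840 lower (2199). The lowest of these member counts came without either control library or either 67NR library for members lower in 4T1 medium, without control replicate 1 for members higher in 67NR medium and without 67NR replicate 1 for the last. The share of repeated Gapdh windows was 25.1% over all its transcripts and 82.5% for the principal one.

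Reversals of sign touched only values that had not passed the test. Pdk3 in 67NR medium was -0.00183 and became 0.00501 with DESeq2 size factors, 0.00479 with the DESeq2 Wald test and 0.00242 with 2 groups. Pgk1 and Eno1 in 4T1 medium became 0.0141 and 0.00588 with library totals alone. Gapdh in 4T1 medium became -0.14 with its copies added. With 1 library left out, log2 values against control spanned -0.0322 to 0.0751 for Hk1, -0.0571 to 0.0363 for Gpi1, -0.154 to 0.101 for Pfkfb1, -0.0840 to 0.0295 for Pfkfb3, -0.109 to 0.0197 for Pdk1, -0.0185 to 0.00919 for Pdk3 and -0.155 to 0.855 for Slc16a3 in 67NR medium. In 4T1 medium they spanned -0.0421 to 0.000723 for Pgk1, -0.128 to 0.934 for Slc16a3 and -0.173 to 0.0237 for Taldo1. In 4T1 against 67NR they spanned -0.0657 to 0.137 for Pfkp, -0.415 to 0.107 for Pfkfb2 and -0.325 to 0.356 for Slc16a3.

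With the replicate number as a block, 13 members were higher and 5 lower in 4T1, and 5 higher and 12 lower in 67NR medium. Between the tumour media 21 were higher and 6 lower. Of all 15055 genes tested, the block gave 3091 higher and 2966 lower in 4T1, and 2063 and 2319 in 67NR medium. Between the tumour media it gave 3618 and 3050. Libraries with the same number did not deviate together (correlations of 0.00508, -0.04 and 0.07). The labels do not say whether they share a culture, day or batch, and these correlations cannot decide it. The depth left Slc2a3, Aldoc and Pygl untested, and Slc16a3, at under 2 CPM, had the widest errors of the tested members.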
